A study of Mus musculus with 6 samples.

Results

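The transcripts examined here encode the constant parts of immunoglobulins, the joining chain that links them into polymers, and the receptor that carries those polymers across epithelium. The set held every gene of the biotype IG_C_gene in the deposited table, together with Jchain and Pigr, which gave 7 of 17550 genes. It was selected on results of this same genotype comparison, in which Jchain, Igha and Igkc were already known to be lower, so the differences between genotypes of the 7 genes are given as a description without a test. The members were the heavy chain genes Igha, Ighm, Ighg1 and Ighg2b, the kappa light chain gene Igkc, Jchain and Pigr. Other immunoglobulin genes, including the variable segments and the lambda light chains, were not analysed here.

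Kidneys of 3 Control and 3 KC-Tie2 samples were compared by bulk RNA sequencing of poly(A)-selected libraries. KC-Tie2 mice are a model of psoriasis in which the keratinocytes of the skin carry a transgene for the receptor Tie2, and the kidney itself is not the targeted tissue. The labels give no further allele, agent, strain, sex or age for either group, state that kidneys were collected after perfusion with saline, and do not say that each sample is a separate animal, so any p-value measures the spread between these samples only. All 13 markers chosen to define kidney were in the table, among them Umod of the thick ascending limb and Lrp2 of the proximal tubule. The mouse gene for Tie2, Tek, ranged over 989 to 1081 normalized counts among Control and 933 to 976 among KC-Tie2 libraries (limma adjusted p = 0.361). The libraries held 18843926 to 29516168 estimated counts, and 1 estimated count was worth between 0.826 and 1.35 normalized counts.

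Plasma cells are the antibody-secreting descendants of B cells. Each antibody consists of heavy chains, whose constant gene sets the class (Igha for IgA, Ighm for IgM, Ighg1 and Ighg2b for IgG), and of light chains, which in the mouse are mostly kappa. IgA and IgM are secreted as polymers closed by the J chain. Epithelial cells bind such polymers with the polymeric immunoglobulin receptor, the product of Pigr, and release them at the luminal surface, which in the kidney is the tubule lumen and the urine.

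The last 60 coding bases of the secreted heavy chain transcripts show which classes the J chain can join. IgA and IgM end in a short tailpiece whose penultimate residue is a cysteine that forms the disulfide bond with the J chain, and IgG has no such tailpiece. The sequences are those of the GENCODE M21 transcripts on GRCm38, read on the minus strand of chromosome 12 (chr12:113258771-113258830 for Igha, chr12:113420870-113420929 for Ighm, chr12:113328979-113329038 for Ighg1 and chr12:113306392-113306451 for Ighg2b). Each ends just before the stop codon, and capitals mark a cysteine codon in the penultimate position.
Igha: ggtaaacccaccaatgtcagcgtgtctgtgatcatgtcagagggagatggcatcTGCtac
Ighm: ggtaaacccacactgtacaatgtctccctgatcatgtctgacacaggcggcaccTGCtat
Ighg1: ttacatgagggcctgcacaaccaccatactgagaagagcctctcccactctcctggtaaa
Ighg2b: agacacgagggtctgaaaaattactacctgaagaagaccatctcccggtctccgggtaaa

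Compared position by position without gaps, Igha and Ighm shared 41 of these 60 bases, and Ighg1 and Ighg2b also shared 41. Igha shared 11 with Ighg1 and 12 with Ighg2b, and Ighm shared 17 with Ighg1 and 25 with Ighg2b. Neither IgG gene had a cysteine codon in the window. By this sequence feature the heavy chain genes divide into a J chain partner pair, Igha and Ighm, and IgG genes without that partner. The division is one of sequences and not of the expression values below.

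Jchain, the joining chain itself (ENSMUSG00000067149, chromosome 5, 88667668 to 88675750, minus strand, build mm39 as in the submitters' notes), had the lowest log2 fold change of the tested members. Its normalized counts were 48.3, 95 and 98.8 in Control replicates 1 to 3 and 28.9, 25.8 and 18.1 in KC-Tie2 replicates 1 to 3. The groups did not overlap, and Control replicate 1 lay well below the other Control libraries. The means were 80.7 ± 28.1 and 24.3 ± 5.53 (SD, n = 3 each), a log2 fold change of -1.65 ± 0.32 (SE). Fold changes are KC-Tie2 minus Control and were fitted to log2(value + 1). These values rested on 46, 115 and 73 estimated counts in Control and 26, 31 and 20 in KC-Tie2 libraries. In bulk tissue, fewer plasma cells and less of the transcript per cell cannot be told apart, which holds for every immunoglobulin gene below.

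Igha, the IgA heavy chain gene (ENSMUSG00000095079, chromosome 12, 113218450 to 113223856, minus strand), had 204, 310 and 348 normalized counts in the Control libraries. It had 134, 114 and 113 in the KC-Tie2 libraries. All KC-Tie2 libraries lay below all Control libraries, and they lay closer to each other than the Control libraries did. The means were 287 ± 74.6 and 121 ± 11.9 (SD, n = 3 each), a log2 fold change of -1.21 ± 0.19 (SE).

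Igkc, the constant part shared by all kappa light chains of whatever class (ENSMUSG00000076609, chromosome 6, 70703419 to 70703950, plus strand), was lower in KC-Tie2 kidneys as well. Its values were 115, 161 and 215 in Control and 58.8, 73.4 and 92.5 in KC-Tie2 libraries. The groups again did not overlap, with Control replicate 1 the lowest of its group as it was for Jchain and Igha. The means were 164 ± 50.4 and 74.9 ± 16.9 (SD, n = 3 each), a log2 fold change of -1.09 ± 0.24 (SE).

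Ighm, the IgM heavy chain gene expressed by B cells as well as by IgM plasma cells (ENSMUSG00000076617, chromosome 12, 113382178 to 113386350, minus strand), had 75.6, 106 and 96.1 normalized counts in Control libraries. The KC-Tie2 libraries had 110, 125 and 78. The groups overlapped, and KC-Tie2 replicate 3 lay at the low end of the Control range. The log2 fold change was 0.16 ± 0.21 (SE) on means of 92.5 ± 15.4 and 104 ± 24 (SD, n = 3 each).

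The IgG genes rested on few counts. Ighg2b (ENSMUSG00000076613, chromosome 12, 113266585 to 113271553, minus strand) had 9.45, 26.4 and 6.76 normalized counts in Control and 21.1, 25.8 and 12.7 in KC-Tie2 libraries, and the groups overlapped (log2 fold change 0.62 ± 0.54, SE). Ighg1 (ENSMUSG00000076614, chromosome 12, 113288860 to 113294143, minus strand) was counted 0, 0 and 4 times by estimate in Control libraries, against 8, 38 and 6 times for KC-Tie2. Every gene of the table reached at least 30 estimated counts in some library, and Ighg1 did so in KC-Tie2 replicate 2 alone, so it could be listed only by being high there, and its difference is not a result. Ighg2b did so in Control replicate 2, with 32, and in KC-Tie2 replicate 2, with 31. On the normalized scale the highest Control library, at 5.41, and the lowest KC-Tie2 library, at 5.44, were nearly equal, and KC-Tie2 replicate 2, at 31.7, stood far above the rest. With a mean of 8.57 over the 6 libraries Ighg1 was under the limit of 10 and entered no fit. The IgG subclass genes are close copies of each other, so the share of reads counted for each is uncertain.

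Pigr, the transport receptor (ENSMUSG00000026417, chromosome 1, 130754421 to 130779986, plus strand), had the highest level per kilobase of the members. It had 3735, 3954 and 3185 normalized counts in Control and 3548, 3909 and 4717 in KC-Tie2 libraries. The groups overlapped, with means of 3624 ± 396 and 4058 ± 598 (SD, n = 3 each) and a log2 fold change of 0.16 ± 0.11 (SE). For the receptor that moves polymeric IgA, the highest and the lowest library were thus KC-Tie2 replicate 3 and Control replicate 3, and the other 4 lay between 3548 and 3954.

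**Figure D1:**
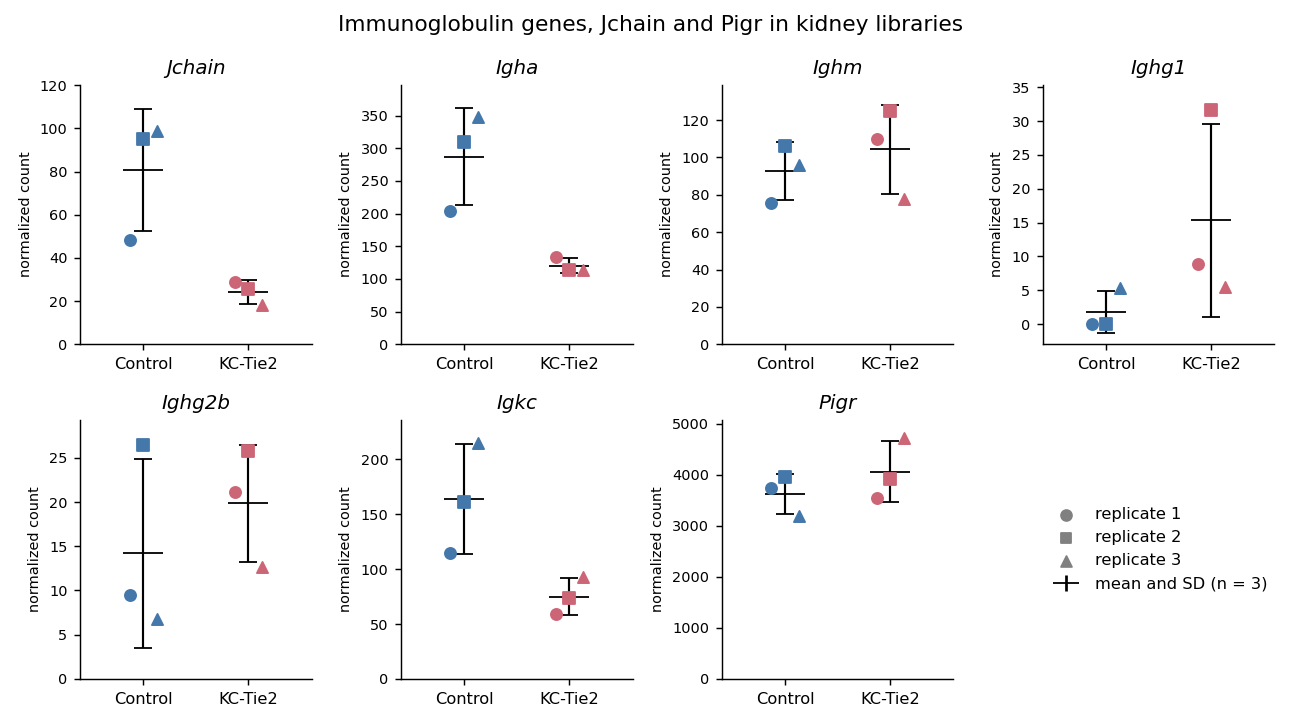
Normalized counts of the 7 genes (vertical axes, linear and different for each gene) in the 3 Control (blue) and 3 KC-Tie2 (red) libraries, with markers for the replicate number and bars for mean and SD. Jchain, Igha and Igkc show no overlap between the groups, Ighm, Ighg2b and Pigr overlap, and the Ighg1 groups meet at 5.41 and 5.44.

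Of the 6 members tested, 3 passed an adjusted p under 0.05 in the limma fit over all genes, and all 3 were lower in KC-Tie2 kidneys. In that fit 1.69% of the 17539 genes tested were called, 0.838% lower and 0.855% higher, and the 3 libraries of a genotype lay entirely to one side of the other 3 at 20.0% of genes tested. Since the set was chosen with this contrast known, nothing is read from its count. The median log2 fold change of the 6 tested members was -0.46, beside 0.001 for all genes tested. In the authors' deposited table the ratio of KC-Tie2 to the group headed WT was 0.3 for Jchain, 0.42 for Igha and 0.462 for Igkc. The same authors' deposited table gave 1.13 for Ighm, 1.12 for Pigr, 1.36 for Ighg2b and 9.89 for Ighg1.

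To compare levels between genes, normalized counts were divided by the length in kilobases of the first-named GENCODE transcript of each gene, the secreted form for heavy chains. In Control kidneys the order of levels per kilobase was Pigr (942 ± 103, SD, n = 3), Igkc (307 ± 94.7), Igha (261 ± 67.8), Ighm (61.9 ± 10.3), Jchain (57.9 ± 20.2), Ighg2b (12.8 ± 9.57) and Ighg1 (1.68 ± 2.9). With these lengths the neighbours Igkc and Igha, and Ighm and Jchain, lay within each other's spread. The union of all exons is 2668 bases against 1100 for Igha and 2517 against 1393 for Jchain, while Igkc has 532 either way. The order of levels with the union lengths was not computed. In KC-Tie2 kidneys the levels per kilobase were 1054 ± 155 for Pigr, 141 ± 31.8 for Igkc and 110 ± 10.8 for Igha. Lower down they were 69.9 ± 16.1 for Ighm, 17.8 ± 5.97 for Ighg2b, 17.4 ± 3.97 for Jchain and 14.3 ± 13.2 for Ighg1. With the transcript lengths used, Jchain stood beside Ighm in Control and beside the IgG genes in KC-Tie2 kidneys. The last 3 of the KC-Tie2 order did not differ beyond their spread.

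The balance of heavy chain classes inside a library does not depend on how that library was scaled. Igha made up 75.8%, 74.9% and 80.7% of the summed heavy chain level per kilobase in Control libraries and 54.8%, 43.2% and 60% in KC-Tie2 libraries. The Ighm share was 20.7%, 18.8% and 16.4% in Control and 33%, 34.9% and 30.4% in KC-Tie2 libraries. Ighg1 and Ighg2b together held 3.47%, 6.31% and 2.84% in Control and 12.2%, 21.9% and 9.58% in KC-Tie2 libraries. For each of the 3 shares the groups did not overlap, the Igha share being lower and the others higher in KC-Tie2 kidneys. The 3 shares are parts of the same sum, so a lower Igha share raises the others, and they are not separate results. As normalized counts, Ighm overlapped between the groups. The sum of Ighg1 and Ighg2b did too, at 9.45 to 26.4 in Control and 18.1 to 57.5 in KC-Tie2 libraries. The summed heavy chain level per kilobase was 337 ± 80.8 for Control and 212 ± 35.6 for KC-Tie2 (SD, n = 3 each). These shares are built from the members' own values in the contrast that chose them, so they carry no test. The IgG share also takes in Ighg1, listed through KC-Tie2 replicate 2 alone, whereas the ratio of Igha to Ighm given further on does not.

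**Figure D2:**
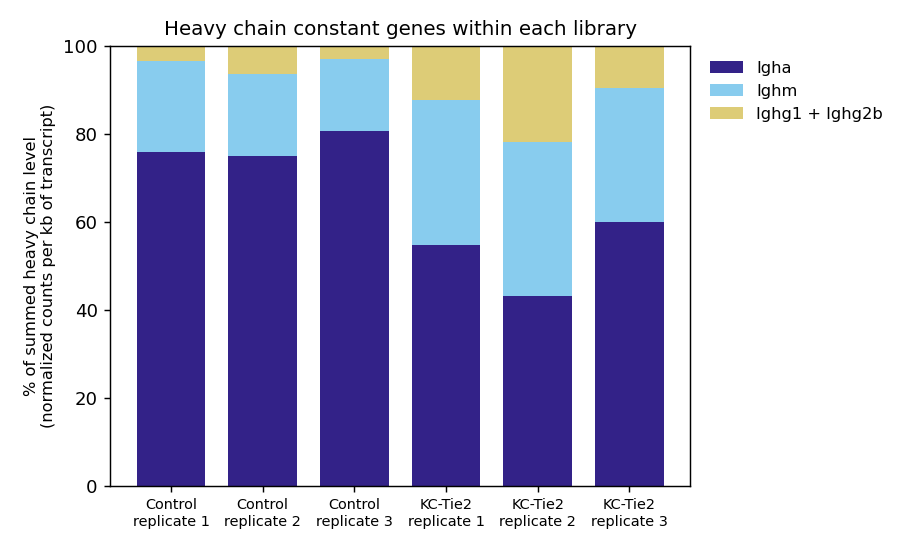
Share of Igha, Ighm and the sum of Ighg1 and Ighg2b in the summed heavy chain level of each library (vertical axis, % of normalized counts per kilobase of transcript), with 1 bar per library. The Igha part is 74.9% to 80.7% in the Control bars and 43.2% to 60% in the KC-Tie2 bars.

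The counting error of the Igha share follows from the counts behind it. As a share of estimated counts without correction for length, Igha took 70.5% of 275 counts in Control replicate 1 (95% exact Clopper-Pearson interval 64.8% to 75.9%). The share was 70.1% of 535 in Control replicate 2 (66% to 73.9%) and 76.3% of 337 in Control replicate 3 (71.4% to 80.7%). In KC-Tie2 replicates 1 to 3 it was 49% of 247 (42.6% to 55.4%), 38.5% of 356 (33.4% to 43.8%) and 54.1% of 231 (47.5% to 60.7%). The intervals treat the estimated counts as independent. Estimated counts of amplified reads are not independent molecules, so the intervals may be too narrow even for counting error. They do not describe the spread between samples. The heavy chain counts include those of Ighg1, 38 of the 356 in KC-Tie2 replicate 2.

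Ratios between pairs of genes compare them inside each library. The ratio of Igha to Ighm normalized counts was 2.69, 2.93 and 3.62 in Control and 1.22, 0.913 and 1.45 in KC-Tie2 libraries. The ratio of Jchain to Igha was 0.237, 0.307 and 0.284 in Control and 0.215, 0.226 and 0.16 in KC-Tie2 libraries. That gap was narrow, with 0.226 and 0.237 as the nearest values of the groups. Jchain to Ighm, the other J chain partner, was 0.639 to 1.03 in Control and 0.207 to 0.263 in KC-Tie2 libraries. The ratio of Igkc to Igha overlapped between the groups, at 0.52 to 0.619 in Control and 0.438 to 0.816 in KC-Tie2 libraries.

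**Figure D3:**
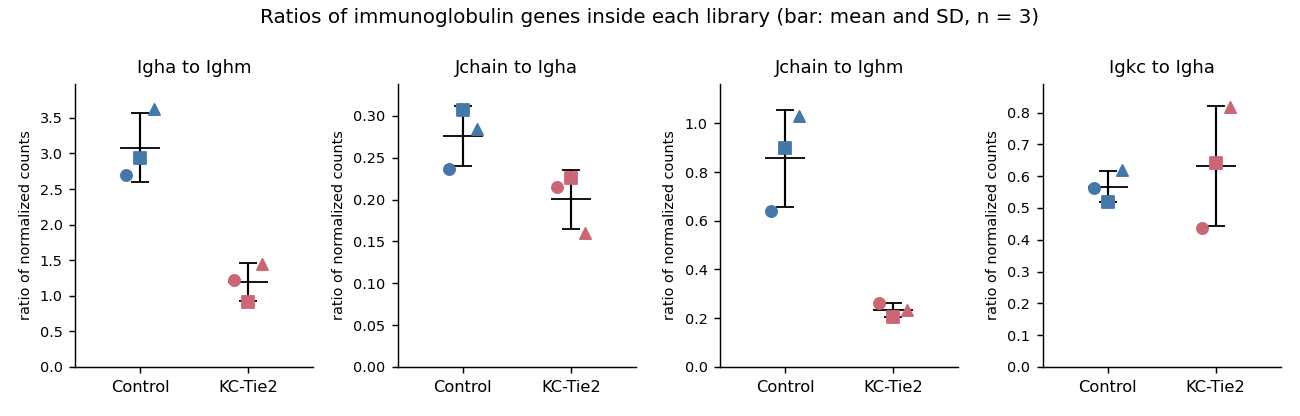
Ratios of normalized counts between pairs of immunoglobulin genes (vertical axes, linear from 0) inside each Control (blue) and KC-Tie2 (red) library, with bars for mean and SD. Igha to Ighm and Jchain to Ighm lie far apart between the groups, Jchain to Igha lies close, and Igkc to Igha overlaps.

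The likeness of 2 profiles was measured as the root mean square difference of their log2(value + 1) values over the 6 libraries, after each gene's mean was subtracted. Igha lay 0.284 from Jchain, Igkc 0.488, Ighm 0.931, Pigr 1.03 and Ighg2b 1.28. Among 12389 other protein-coding genes with a mean of at least 50, the nearest to Jchain were Spns3, a sphingolipid transporter family gene (0.366), the immediate early gene Egr1 (0.385), the peptide-processing enzyme gene Cpe (0.46), Pde6a (0.469) and Afmid, a kynurenine pathway enzyme (0.501). Igha was thus nearer to Jchain than any of them, whereas Igkc was farther than Spns3, Egr1, Cpe and Pde6a. Igha and Jchain were both already known to be lower in this contrast, so this order is no support. Spns3 had 144, 205 and 139 normalized counts in Control libraries and 63.3, 80 and 45.4 in the others (limma adjusted p = 0.0164), and Egr1 was not called (limma adjusted p = 0.233). The call on Spns3 was lost without Control replicate 1 or 3 or KC-Tie2 replicate 1 (limma adjusted p between 0.0559 and 0.0731). The nearest to Pigr were Chchd5 (0.0244), Chst3 (0.0383), Snrpe (0.0401), Cyp2c23 (0.0464) and Sec22c (0.0602), and Pigr itself departed from its own mean by only 0.172. This is a description over 6 libraries, and genes that differ between the genotypes resemble each other by that difference alone.

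Over all genes tested, 2691 of 17539, or 15.3%, had an unadjusted p under 0.05, and the counts at that level in the lists below stand beside this share. In pairs of values below, Control is given first, as mean ± SD of 3 libraries. Of 20 plasma cell markers 14 had a row in the table and were tested. By limma 0 were called, 1 had an unadjusted p under 0.05, and the median log2 fold change was 0.00. Mzb1, Irf4, Tnfrsf17, Tnfrsf13b, Pou2af1 and Cd28 are not analysed here. Edem1, which helps clear misfolded proteins from the endoplasmic reticulum, had 3383 ± 444 and 2540 ± 279 (limma adjusted p = 0.0982). Edem1 was called lower with the replicate block (0.0213), with library weights (0.0423), and when either Control replicate 2 (0.0193) or KC-Tie2 replicate 3 (0.0386) was left out. Creld2 had 428 ± 66.1 and 341 ± 83.2 (limma adjusted p = 0.407). Xbp1, the transcription factor of the secretory programme, had 2227 ± 206 and 2278 ± 264, and the plasma cell surface proteoglycan gene Sdc1 had 278 ± 50.9 and 280 ± 4.83. Xbp1 and Sdc1 are also expressed by epithelial cells. The Control means of Edem1, Xbp1, Txndc5 (1963) and Ell2 (1074) stood far above that of Jchain (80.7), and those of Derl3 (31.9) and Slamf7 (46.9) below it. The median of this list is therefore no measure of plasma cell number, which was not tested.

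Of 20 B cell markers 7 were tested, and 0 were called by limma, with an unadjusted p under 0.05 at 3 and a median log2 fold change of -0.10. Ms4a1 and Cd79a, which are B cell markers, are not analysed here. Cd72, a B cell coreceptor, had 76.9, 94.1 and 85.1 in Control and 143, 128 and 134 in KC-Tie2 libraries (limma adjusted p = 0.0684). The transcription factor gene Ebf1 went the other way, with 384 ± 28.2 and 316 ± 19.3 (limma adjusted p = 0.208). The summed level of the 7 B cell markers was 1578.1 to 1716.9 in Control and 1546.2 to 1637.3 in KC-Tie2 libraries, which overlap.

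The chaperones and disulfide isomerases that fold antibodies are made by every secretory cell. Of 22 such genes 21 were tested, 18 with a log2 fold change below 0, 3 with an unadjusted p under 0.05 and 0 called by limma (median -0.15). Dnajc3 had 4476 ± 240 and 3862 ± 450 (limma adjusted p = 0.254), and P4hb, the beta subunit of prolyl hydroxylase and a disulfide isomerase, had 11785 ± 874 and 10331 ± 477 (limma adjusted p = 0.277).

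Plasma cells depend on survival factors, on chemokines that guide IgA cells, and on the signals for class switching. Of 27 genes of this list 16 were tested. Of the 16, 12 were above 0, 4 were below 0, 2 had an unadjusted p under 0.05 and 0 were called by limma (median log2 fold change 0.13). Vcam1, an adhesion molecule that retains plasma cells, had 198 ± 25.1 and 263 ± 41.3 (limma adjusted p = 0.202). Tgfb1, whose product directs switching to IgA, had 303 ± 28.3 and 368 ± 4.82 (limma adjusted p = 0.208). The survival factor genes Tnfsf13, for APRIL, and Tnfsf13b, for BAFF, were named after their values were seen: Tnfsf13 had 40.4 ± 3.03 and 53.1 ± 6.94 (limma adjusted p = 0.475), and Tnfsf13b had 33.3 ± 7.28 and 49.5 ± 10.5 (limma adjusted p = 0.356). Ccl28, for a chemokine that attracts IgA plasma cells to mucosa, was also named after its values were seen. It had 157, 140 and 377 in Control and 185, 543 and 430 in KC-Tie2 libraries (limma adjusted p = 0.643). Ccr9 and Itgb7, likewise named after their values were seen, were among the 4 genes below 0. Ccr9 had 83.1 ± 12.7 and 66.1 ± 7.22 (limma adjusted p = 0.482). Itgb7 had 31.2 ± 5.97 and 25.4 ± 7.9 (limma adjusted p = 0.732). The part of these genes in the lower Igha and Jchain was not tested.

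The list of receptors that bind immunoglobulins after secretion also holds partner and adaptor genes such as B2m, Fcer1g, Amn and Dab2. It had 16 tested members, 1 called lower and 0 higher, with a median log2 fold change of 0.18. Of the 16, 9 were above 0, 7 were below 0, and 7 had an unadjusted p under 0.05. Fcgrt, the heavy chain of the neonatal Fc receptor that recycles IgG and albumin in podocytes and proximal tubules, had 3397, 3264 and 3242 in Control and 2618, 2620 and 2750 in KC-Tie2 libraries. Fcgrt fell by 0.31 on the log2 scale (SE 0.06, limma adjusted p = 0.0354), and all KC-Tie2 libraries lay below all Control libraries. The call on Fcgrt was lost without Control replicate 1 or 3 or KC-Tie2 replicate 1 or 2 (limma adjusted p between 0.125 and 0.179). Fcamr, a receptor for IgA and IgM named after its values were seen, had 493 ± 131 and 401 ± 57.9 (limma adjusted p = 0.587). Lgals3 and Fcgr2b, also named after their values were seen, went opposite ways and were not called. Lgals3 had 390 ± 27.3 and 562 ± 89.1 (limma adjusted p = 0.0574), and Fcgr2b had 1021 ± 14.2 and 827 ± 42.6 (limma adjusted p = 0.0588). Fcgr1, Fcgr3, Fcgr4 and B2m, likewise named after their values were seen, were above 0 and not called. Their log2 fold changes were 1.18, 0.55, 0.69 and 0.36 (limma adjusted p = 0.282, 0.209, 0.464 and 0.244).

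Pigr is induced in other epithelia by interferon-gamma, tumour necrosis factor, interleukin-1, interleukin-17 and interleukin-4. Of 22 receptors and transcription factors of these signals, all tested, 1 rose and 0 fell (median log2 fold change 0.05). An unadjusted p under 0.05 was found at 5 of the 22. Tnfrsf1a, the main receptor for tumour necrosis factor, had 1031, 1065 and 966 in Control and 1564, 1492 and 1213 in KC-Tie2 libraries (log2 fold change 0.47 ± 0.09, limma adjusted p = 0.0325). Its call was lost without Control replicate 1 or 3 or KC-Tie2 replicate 1 or 2 (limma adjusted p between 0.126 and 0.163), with equal library sums (0.0538) and with eBayes without robust (0.0526). Pigr, with its log2 fold change of 0.16 ± 0.11, was not called.

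The machinery that carries the receptor and its cargo through the epithelial cell had 23 tested genes, 13 above 0 and 10 below 0. By limma 1 was called higher and 0 lower, and 3 had an unadjusted p under 0.05 (median log2 fold change 0.05). Rab17, a small GTPase of epithelial recycling endosomes and transcytosis, had 516, 594 and 575 in Control and 717, 829 and 713 in KC-Tie2 libraries (log2 fold change 0.42 ± 0.09, limma adjusted p = 0.0431). The call on Rab17 was lost without Control replicate 1 or 3 or KC-Tie2 replicate 1 or 2 (limma adjusted p between 0.105 and 0.221) and with eBayes without robust (0.061). Rab25 and Rab3d, GTPases of the same compartments that were named after their values were seen, had 214 ± 20.5 and 279 ± 39 (limma adjusted p = 0.199) and 250 ± 12.1 and 322 ± 38.5 (limma adjusted p = 0.16). Rab5a, also named after its values were seen, went the other way, with 1239 ± 42.2 and 1118 ± 51.1 (limma adjusted p = 0.328).

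**Figure D4:**
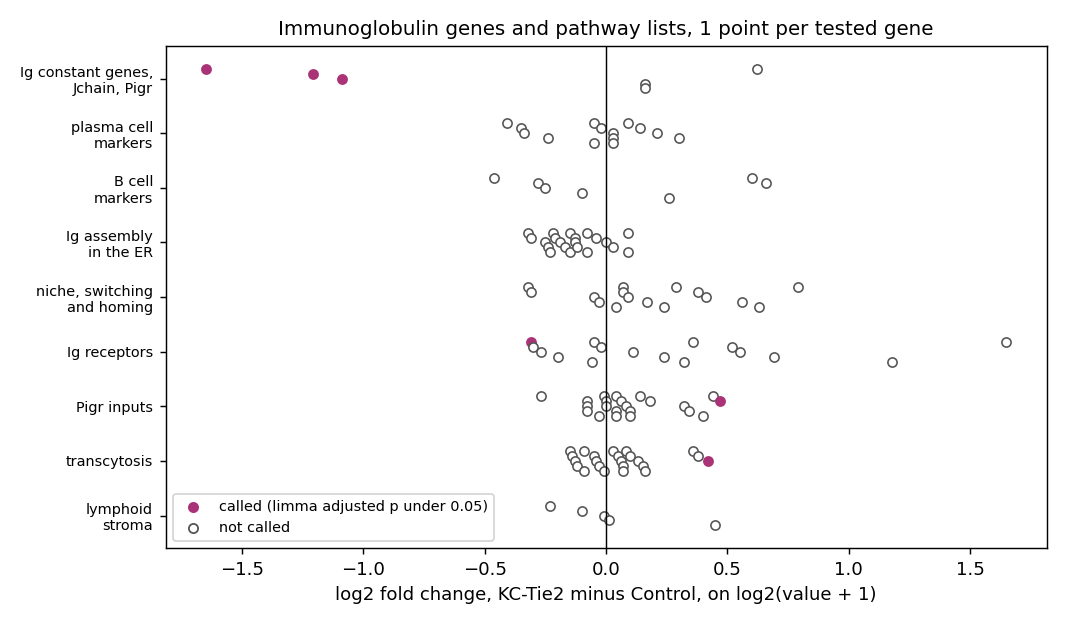
Log2 fold changes on log2(value + 1), KC-Tie2 minus Control (horizontal axis), with 1 point per tested gene for the immunoglobulin set and 8 lists around it, filled where called. The 3 filled points of the immunoglobulin set lie between -1.65 and -1.09, and the other filled points are Fcgrt at -0.31, Tnfrsf1a at 0.47 and Rab17 at 0.42.

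Markers of other tissues and cells that could bring antibody-secreting cells into a sample varied between libraries. The 5 tested lymphoid stroma markers summed to 324.8 to 408 in Control and 360.3 to 451 in KC-Tie2 libraries, with 0 called and 1 at an unadjusted p under 0.05 (Pdpn at 102 ± 12.7 and 142 ± 29.2, Ccl19 at 30.8 ± 4.32 and 27 ± 10.1, limma adjusted p = 0.283 and 0.808). The 9 urothelium and renal pelvis markers, Krt15 and Upk1a among them, summed to 301.7 to 1593.1 in Control and 266.7 to 1277.9 in KC-Tie2 libraries, and the 7 fat tissue markers, Cidec and Retn among them, to 493.8 to 3904.8 and 497.6 to 2704.6, with 0 called and 0 at an unadjusted p under 0.05 in both lists by limma. The fat markers were highest in Control replicate 1 and KC-Tie2 replicate 1, and Control replicate 1 was also the Control library with the lowest Jchain, Igha and Igkc. Within KC-Tie2, replicate 1 had the highest Jchain and Igha of its group and the lowest Igkc. The 6 markers of residual blood, Alas2 and Hbb-bt among them, summed to 2561.7 to 3616.1 in Control and 2363.8 to 6406.4 in KC-Tie2 libraries. By limma 0 were called and 0 had an unadjusted p under 0.05. Slc4a1, which is also among the kidney markers, had 949 to 1413 in Control and 1150 to 1391 in KC-Tie2 libraries. These sums are therefore no measure of blood alone. The part of these tissues in the immunoglobulin values was not tested.

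Among other immune cells, only 3 of 18 T and NK cell markers were tested, with 0 called by limma and 1 at an unadjusted p under 0.05. Cd4 was at 16.8, 26.4 and 16.2 in Control and 13.3, 8.34 and 5.44 in KC-Tie2 libraries (limma adjusted p = 0.316). Of 13 macrophage markers 3 rose and 0 fell, the complement genes C1qa, C1qb and C1qc (log2 fold changes of 0.94 ± 0.13, 0.76 ± 0.14 and 0.77 ± 0.17, limma adjusted p = 0.00742, 0.021 and 0.0449). Of the 13, 11 were above 0, 2 were below 0, and 9 had an unadjusted p under 0.05. Without single libraries between 1 and 6 macrophage markers were called, and 1 was called without Control replicate 1 or 3 or KC-Tie2 replicate 1 or 2. Of the 14 markers of the thick limb and distal nephron 3 rose and 0 fell: Calb1 (0.86 ± 0.12), Scnn1b (0.42 ± 0.09) and Trpm6 (0.37 ± 0.07), and among the 13 kidney markers Calb1 rose and 0 fell. An unadjusted p under 0.05 was found at 6 of the 14 nephron markers and at 7 of the 13 kidney markers. The calls on Scnn1b and Trpm6 were lost without Control replicate 1 or 3 or KC-Tie2 replicate 1 or 2 (limma adjusted p between 0.107 and 0.217), and that on Scnn1b also with equal library sums (0.0554) and with eBayes without robust (0.068). The 14 nephron markers summed to 306586.1 to 316260 in Control and 330259.7 to 380802.5 in KC-Tie2 libraries, beside the Pigr values given above. Their part in the Pigr level was not tested.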

How the data were processed

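Libraries were grouped by the genotype in their titles, and columns were matched by the library names in the labels. The deposited expression values are a signal, normalized counts per gene. Partek 12.5.0, STAR, DESeq2 and the build mm39 are named, per the submitters' processing notes, with no step assigned to any. The low values were multiples of 1 step per library (68.2% to 70.9% of values under 60 within 0.01), and dividing by that step gave estimated counts. For annotation release and strand, the sources used here give nothing. Each gene reached at least 30 estimated counts in some library, so the deposited table leaves out genes below that. The authors' deposited second table holds a p-value, a step-up FDR and a ratio per gene, of which the ratio was used. Values were tested as log2(value + 1) for 17539 genes (mean over libraries of 10 or more), with limma 3.58.1 in R 4.3.3 (lmFit, eBayes with trend and robust), two-sided, Benjamini-Hochberg adjustment over all genes tested, called at an adjusted p under 0.05. The script was tested on simulated data.

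The members and the 15 gene lists were chosen with earlier results of these data known. Named genes were all members, the 5 genes nearest to Jchain and to Pigr, in each list up to 4 called genes with the largest change or the 2 with the smallest p, and Tek, Xbp1, Sdc1, Umod and Lrp2. Some genes belong to more than 1 list. Transcript lengths and sequences come from GENCODE M21 (GRCm38), matched by gene identifier for all 7 members. Other steps used matplotlib 3.10.9, numpy 2.4.6, pandas 2.3.3 and Python 3.11.15. The alternatives were other pseudocounts (0.5 and 5), no filter or a mean of at least 100, equal library sums, quantile normalization, library weights, eBayes without robust, a replicate block, leaving out each library, and, added after seeing the data, the union of all exons as gene length.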

Additional observations from a re-analysis of the deposited data

How the results depend on the processing

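The log2 fold change of every tested member kept its sign in every alternative in which it was tested. With each library left out in turn it ranged from -1.98 to -1.46 for Jchain, -1.44 to -1.06 for Igha, -1.33 to -0.87 for Igkc, 0.02 to 0.35 for Ighm, 0.25 to 1.16 for Ighg2b and 0.05 to 0.25 for Pigr. The count of called members was 3 in the reported fit, with either other pseudocount, with no filter, with the replicate block, with library weights and without KC-Tie2 replicate 3. It was 2 (Jchain and Igha) with equal library sums, quantile normalization, eBayes without robust and without Control replicate 1. It was 1 (Igha) without Control replicate 2 or KC-Tie2 replicate 1 and at a mean of at least 100, where 3 members were tested, and 0 without Control replicate 3 or KC-Tie2 replicate 2. The cause was not tested. The members were chosen with this contrast known, so neither the kept signs nor these counts are support. For Ighm the kept sign included 0.02 ± 0.23 (SE) without Control replicate 1.

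Genes called in all numbered 297, 581 with the replicate block (259 higher, 322 lower), 549 with library weights (263 higher, 286 lower), and 48 to 682 without single libraries (25 to 311 higher, 18 to 371 lower). The replicate numbers are shared only as numbers: deviations of same-numbered libraries from their group means correlated across genes at 0.178, -0.096 and 0.017, and not every library correlated best with its own number. The B cell list had 1 call with library weights, the plasma cell list 1 with the block and 1 with weights, the receptor list 2 with quantile normalization, 2 with the block and 3 with weights, the Pigr input list 0 with equal library sums, the fat list 1 with the block and the kidney list 2 with the block. Without single libraries the lists ranged from 0 to 1 (plasma cell, assembly, transcytosis), 0 to 2 (receptors, Pigr inputs), 1 to 6 (macrophage) and 1 to 3 (kidney, thick limb).

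The differences of mean shares, KC-Tie2 minus Control in percentage points without single libraries, were -28.1 to -19.7 for Igha, 13 to 15.3 for Ighm and 6.68 to 12.8 for IgG, and the Ighm difference was 17.7 with the union of all exons. For ratios they were -2.08 to -1.62 (Igha to Ighm), -0.095 to -0.0554 (Jchain to Igha), -0.729 to -0.535 (Jchain to Ighm) and -0.0267 to 0.162 (Igkc to Igha). Some uncalled genes changed sign: Lrp2 to 0.035 with quantile normalization and, without single libraries, Krt15 (range -1.76 to 0.045), Upk1a (-1.197 to 0.004), Lck (-0.17 to 0.667), Sdc1 (-0.058 to 0.174) and Xbp1 (-0.036 to 0.13). The planned ratio of variable to constant segments was not run. Depth limits Jchain, Ighg1 and Ighg2b most, with 20 to 115, 0 to 38 and 5 to 32 estimated counts per library.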
